A study of Mus musculus with 21 samples.

Results

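Tuft cells sorted from 5 organs of the mouse were set against reporter-negative epithelium of the small intestine, and the genes that differed in the same direction in every organ were taken as the subject. Of 20335 genes tested, 266 (1.31%) were called higher in all 5 tuft groups and 61 (0.3%) were called lower in all 5. A call required an adjusted p under 0.05 in edgeR's quasi-likelihood test with Benjamini-Hochberg adjustment and a change of at least 1 on the log2 scale, a fold of 2. The genes that were higher included transcription factors of the tuft lineage, 6 of 17 tested genes of the taste cascade, enzymes of leukotriene and prostaglandin synthesis, and adaptors and kinases best known from leukocytes. The genes that were lower were led by products of goblet, Paneth and enteroendocrine cells, the secretory cell types of the intestinal crypt and villus.

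All groups were naive C57BL6 mice homozygous for Flare25, a fluorescent reporter allele at Il25, so the reference cells carried the allele as well. Tuft cells were DAPI-negative, CD45-negative, EPCAM-positive and Flare25-positive, and came from small intestine (SI, n = 3 libraries), colon (n = 4), gall bladder (n = 3), thymus (n = 4) and trachea (n = 4). The reference, called non-tuft SI, was the Flare25-negative fraction of small intestine under the same other gates (n = 3). Each library came from 1 male mouse of 12 weeks, except that each trachea library pooled 4 mice of 12 to 16 weeks and that trachea pools 3 and 4 were female. Each group was sorted 4 times, and 1 SI tuft, 1 gall bladder tuft and 1 non-tuft SI library did not pass the study's quality control. The reporter defines the sort, so a tuft cell with no reporter signal would fall in the non-tuft gate. Only the small intestine supplied non-tuft cells. Intestine and gall bladder shared a dissociation protocol, while trachea and thymus each had another. Outside the small intestine, tuft identity cannot be told apart from organ, nor in thymus and trachea from preparation. The 5 contrasts share the same 3 reference libraries.

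Tuft cells are rare epithelial cells with an apical tuft of long microvilli. They sense luminal compounds with parts of the machinery of taste receptor cells, in which G proteins activate a phospholipase, calcium leaves internal stores and the cation channel Trpm5 opens. They are known to release interleukin 25, leukotrienes and acetylcholine, and they need the POU-domain transcription factor Pou2f3 to form.

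A library held 25739248 to 73574745 counts in genes. It was made from 35000 to 36000 sorted cells in SI tuft, 13500 to 16000 in colon tuft, 1750 to 2700 in gall bladder tuft, 1350 to 1900 in thymus tuft and 130 to 453 in trachea tuft libraries, against 52000 to 57000 in non-tuft SI. Mitochondrial transcripts took from 4.38 to 5.97% of counts in thymus tuft up to 24.1 to 33.5% in SI tuft libraries, against 18.6 to 23.7% in non-tuft SI. Summed markers of the surrounding epithelium were compared with the organ labels. Airway epithelial markers summed to 24720 to 110600 CPM (counts scaled to a common library total) in trachea tuft libraries, against 5.58 to 8.50 CPM in non-tuft SI. Colonocyte markers summed to 3838 to 5613 CPM in colon tuft libraries, against 450.9 to 502.6 CPM in non-tuft SI, and medullary thymic epithelial markers to 1613 to 1821 CPM in thymus tuft libraries, against 252.3 to 602.0 CPM. Each of these lists was highest in the libraries of its own organ, but the biliary list was not: it summed to 2048 to 2416 CPM in gall bladder tuft and to 2689 to 6648 CPM in trachea tuft libraries, against 249.9 to 297.2 CPM in non-tuft SI.

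In SI tuft cells 785 genes (3.86% of those tested) were called higher and 539 (2.65%) lower than in non-tuft SI. In colon tuft cells 895 (4.4%) were higher and 664 (3.27%) lower. The contrasts with organs other than the intestine held more calls. They counted 2531 higher (12.4%) and 2753 lower (13.5%) genes in gall bladder, 3488 (17.2%) and 2097 (10.3%) in thymus, and 2845 (14%) and 3505 (17.2%) in trachea tuft cells. Fewer genes were called in every tuft group when some single non-tuft SI library was left out. In gall bladder the lowest counts were 1740 higher, without non-tuft SI replicate 1, and 2017 lower, without replicate 3. In trachea they were 1980 higher and 2774 lower, both without non-tuft SI replicate 1. Without non-tuft SI replicate 1, 2 or 3, the higher calls numbered 565, 581 and 586 in colon and 2044, 2089 and 1990 in thymus, and those in SI 503 and 520 without replicate 1 or 2. Lower calls in SI numbered 319, 326 and 356 without those 3 libraries, and 260, 246 and 235 without SI tuft replicate 2, 3 or 4. Membership in all 5 required passing the smaller intestinal contrasts. Their size rests on a spread shared by all groups. With each tuft group fitted beside the reference alone, both SI and colon held more calls each way, as given below.

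Of the 266 genes that were higher, 257 (96.6%) code for proteins, against 79.4% of all genes tested. In 249 of the 266, the lowest of the 18 tuft libraries lay above the highest of the 3 non-tuft libraries. Their median log2 fold change was 3.99 in SI, 2.97 in colon, 4.65 in gall bladder, 3.59 in thymus and 4.23 in trachea tuft cells, while the median over all tested genes lay between -0.21 and 0.22. Direction and size were used to choose these genes, so the counts describe them and are no further test. The separation of tuft from non-tuft libraries was not counted over all genes tested. Means below carry their SD over libraries, and where 2 tuft groups are given they are the ones with the highest and the lowest mean.

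Fyb, Dclk1, Chat and Alox5 were the genes by which this shared set was marked. Fyb (ENSMUSG00000022148, chr15:6522853-6663313, plus strand in GRCm38), an adaptor of antigen receptor signalling in T cells, was at 1248, 1177 and 1142 in SI, 483, 628, 524 and 622 in colon, 2276, 1832 and 3194 in gall bladder, 457, 518, 517 and 560.2 in thymus, 713, 1521, 1769 and 799 in trachea tuft libraries, against 11.8, 13.2 and 17.2 CPM in non-tuft SI. Its lowest tuft library stood far above the highest non-tuft library. Its log2 fold change ran from 5.19 ± 0.33 (thymus) to 7.43 ± 0.38 (gall bladder), with every adjusted p at or below 7.14e-10. Dclk1 (ENSMUSG00000027797, chr3:55242364-55539068, plus strand), a microtubule-associated kinase widely used to mark intestinal tuft cells, was at 2680, 2221 and 2240 in SI, 807, 928, 779.8 and 1054 in colon, 3134, 3177 and 3740 in gall bladder, 895, 922, 867 and 1183 in thymus, 2776, 3981, 2972 and 2201 in trachea tuft libraries, against 24.9, 23.5 and 30.96 CPM in non-tuft SI. The groups did not overlap, and colon and thymus were the lower tuft groups for this gene. The log2 fold change of Dclk1 ran from 5.08 ± 0.24 (colon) to 6.99 ± 0.27 (gall bladder).

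Chat (ENSMUSG00000021919, chr14:32408203-32465989, minus strand) encodes the enzyme that makes acetylcholine. It was at 341, 349.5 and 241 in SI, 147, 170.4, 121 and 123 in colon, 342, 481 and 518 in gall bladder, 115, 119, 90.8 and 180.1 in thymus, 101, 279, 287 and 57.5 in trachea tuft libraries, against 3.61, 3.61 and 4.59 CPM in non-tuft SI. No tuft library came near the non-tuft range, and the log2 fold change ran from 5.00 ± 0.49 (thymus) to 6.82 ± 0.54 (gall bladder). Alox5 (ENSMUSG00000025701, chr6:116410077-116461178, minus strand), the lipoxygenase that starts leukotriene synthesis, was at 1065, 897 and 984 in SI, 212, 264, 270.0 and 319 in colon, 1219, 944 and 809.6 in gall bladder, 312, 314, 439 and 471 in thymus, 559, 1143, 857 and 756 in trachea tuft libraries, against 9.18, 6.90 and 12.1 CPM in non-tuft SI. SI and gall bladder had the highest means and colon the lowest, and the log2 fold change ran from 4.83 ± 0.31 (colon) to 6.72 ± 0.34 (gall bladder). Levels in these sorted cells are averages, so fewer cells of a type and less RNA per cell cannot be told apart.

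**Figure D1:**
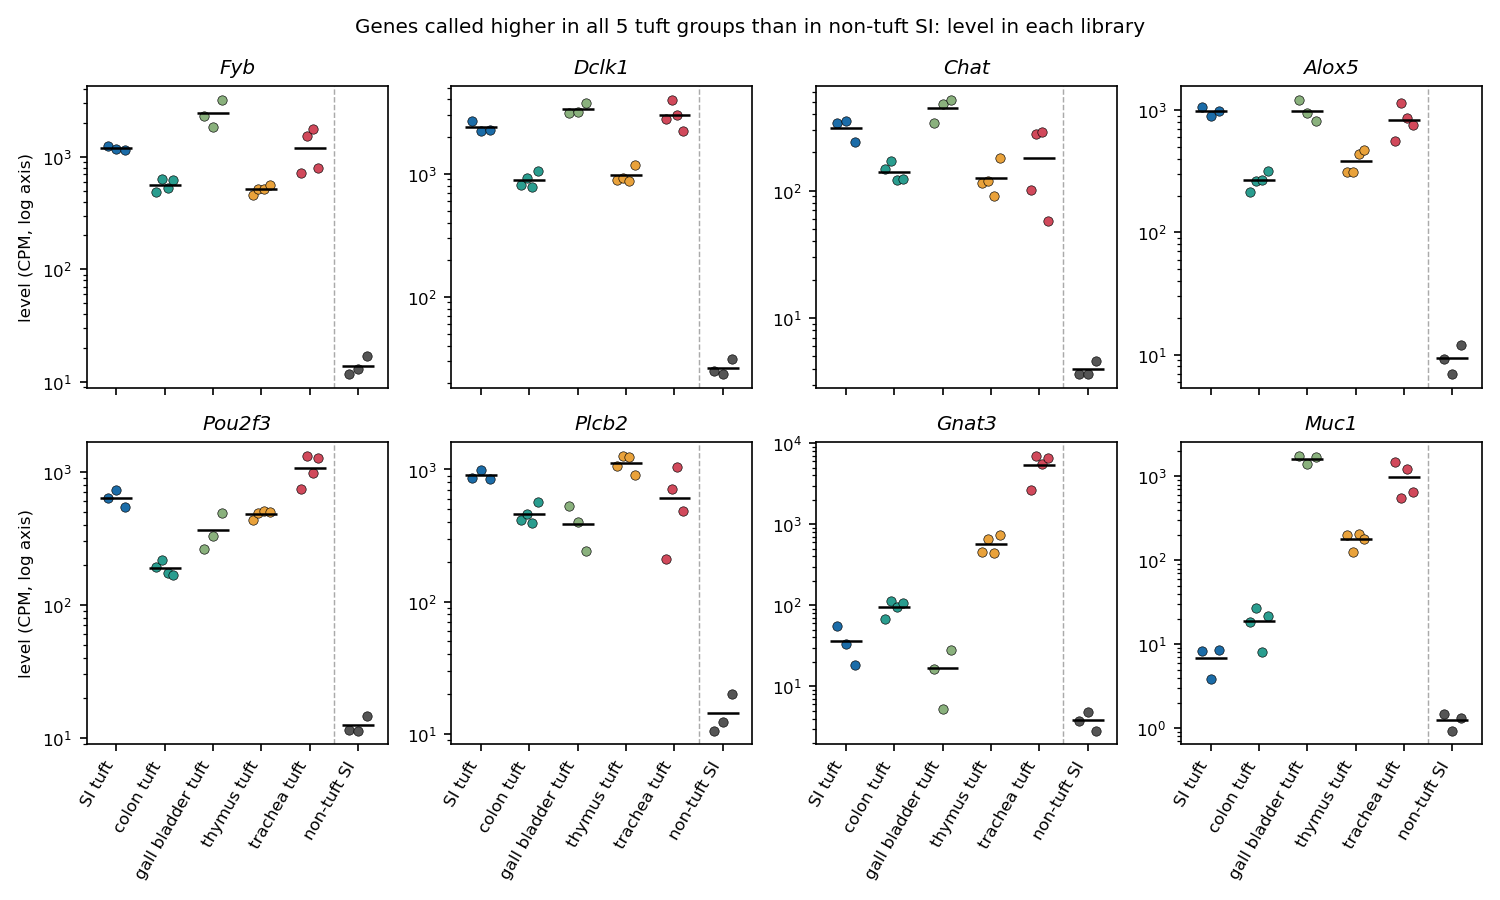
Levels of 8 genes called higher in all 5 tuft groups, in CPM on a log axis. Each point is 1 library and each bar the mean of a group, with the 5 tuft groups to the left of non-tuft SI. Every tuft library of Fyb, Dclk1, Chat and Alox5 lies above all 3 non-tuft libraries, while Gnat3 and Muc1 spread widely between tuft groups.

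The plot of levels by library for these genes and 4 others shows that the gap to the reference was wide in each organ while the tuft groups differed among themselves.

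Among transcription factors, 8 of the 11 listed for the tuft lineage that were tested were called higher in all 5 tuft groups. They were Pou2f3, Spib, Gfi1b, Runx1, Sox9, Ehf, Hmx2 and Hmx3, while Etv1, Ascl2 and Sox4 were not. Per tissue the list held 8 higher calls in SI, 8 in colon, 10 in gall bladder, 9 in thymus and 9 in trachea tuft cells, and 1 lower call each in SI and colon, with a median log2 fold change between 3.17 in colon and 4.55 in trachea. The corresponding share of all tested genes called higher in all 5 was 1.31%. This list and those below were chosen with earlier results of these data known.

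Pou2f3 was at 639.8, 735 and 549 in SI, 192, 216, 175 and 169 in colon, 262, 331 and 495 in gall bladder, 435, 488, 504 and 496 in thymus, 739, 1315, 982 and 1267 in trachea tuft libraries, against 11.4, 11.4 and 14.7 CPM in non-tuft SI. Trachea tuft cells held the most of this factor, colon tuft cells the least, and no tuft library overlapped the reference. Its log2 fold change ran from 3.91 ± 0.27 (colon) to 6.43 ± 0.31 (trachea). Spib, an Ets-family factor known from B cells, averaged 973 ± 88.95 CPM in SI, 191 ± 54.3 in colon, 1284 ± 160.3 in gall bladder, 1139 ± 130.1 in thymus and 1378 ± 428 in trachea tuft cells, against 21.3 ± 3.01 CPM (SD) in non-tuft SI. Gfi1b, a zinc-finger repressor of blood cell lineages, had another order. It averaged 294 ± 22.8 CPM in SI and 315 ± 78.7 in gall bladder but 36.7 ± 26.1 in trachea tuft cells, against 4.67 ± 1.48 CPM in non-tuft SI, and its log2 fold change ran from 2.97 ± 0.51 (trachea) to 6.07 ± 0.60 (gall bladder).

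Hmx2 and Hmx3 are neighbouring homeobox genes, described in the mouse inner ear and brain. Hmx3 was at 36.02, 72.3 and 62.2 in SI, 22.6, 23.99, 23.6 and 23.4 in colon, 109, 38.7 and 187 in gall bladder, 39.7, 26.2, 40.03 and 35.6 in thymus, 109.8, 126, 46.6 and 79.1 in trachea tuft libraries, against 0.898, 0.919 and 0.452 CPM in non-tuft SI. The log2 fold change of Hmx3 ran from 4.95 ± 0.54 (colon) to 7.20 ± 0.61 (gall bladder), so that a gene near 0 in the reference was present in each tuft library. Hmx2 averaged 88.5 ± 24.8 CPM in gall bladder and 6.68 ± 3.19 CPM in thymus tuft cells, against 0.607 ± 0.0783 CPM in non-tuft SI. Sox9 and Ehf were well above 0 in the reference too. Sox9, an HMG-box factor of progenitors, averaged 389.6 ± 34.6 CPM in colon and 1015 ± 304 CPM in gall bladder tuft cells, against 121 ± 14.5 CPM in non-tuft SI. Ehf, an epithelial Ets factor, averaged 369.9 ± 38.2 CPM in SI and 1436 ± 349.8 CPM in trachea tuft cells, against 139 ± 6.95 CPM in non-tuft SI.

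POU-family factors such as Pou2f3 bind an octamer element, so the letters ATGCAAA and their reverse complement TTTGCAT were searched for in RefSeq promoters of GRCm38.p6, from 250 bases before to 50 after each gene's start. No other motif was searched. Of the 266 genes, 202 had a promoter in the table and 19 of these (9.41%) held the letters, against 619 of 13576 tested genes with a promoter (4.56%). For the genes lower in all 5 tuft groups it was 1 of 36 (2.78%). Counted over promoters, they stood in 20 of 277 (7.22%) for the higher genes, in 657 of 17159 (3.83%) for all tested genes and in 1520 of 32851 (4.63%) in the whole table. No test was made of these shares, and a match says only that the letters are there.

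Stretches that end before the start site are shown for 4 of these genes. They were picked by hand among the genes with levels described here, and Stox2 and Tuba1a also held the letters. Capitals mark ATGCAAA or TTTGCAT and each line reads 5' to 3' along the gene's own strand. They come from RefSeq in GRCm38.p6, at chr15:84167678-84167804 on the plus strand for Pnpla3, chr6:65144838-65144964 on the minus strand for Hpgds, chr10:127000534-127000708 on the plus strand for Avil and chr16:92697334-92697460 on the minus strand for Runx1.
Pnpla3: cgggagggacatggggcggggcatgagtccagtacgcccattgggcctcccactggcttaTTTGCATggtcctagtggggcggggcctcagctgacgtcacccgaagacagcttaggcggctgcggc
Hpgds: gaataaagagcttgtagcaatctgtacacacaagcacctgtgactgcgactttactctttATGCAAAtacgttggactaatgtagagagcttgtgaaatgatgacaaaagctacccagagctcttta
Avil: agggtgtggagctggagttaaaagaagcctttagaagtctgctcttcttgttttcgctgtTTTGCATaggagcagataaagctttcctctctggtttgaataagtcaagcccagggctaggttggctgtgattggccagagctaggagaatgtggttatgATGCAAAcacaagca
Runx1: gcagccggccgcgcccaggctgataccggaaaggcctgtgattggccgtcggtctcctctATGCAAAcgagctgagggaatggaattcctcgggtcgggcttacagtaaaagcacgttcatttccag

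Counted from the start site, the first base of the match lay at -78 in Pnpla3, -174 in Hpgds and -71 in Runx1, and Avil held matches at -115 and -15. Runx1, a Runt-domain factor of blood formation, averaged 151 ± 9.43 CPM in SI, 70.4 ± 10.1 in colon, 128 ± 23.1 in gall bladder, 159 ± 35.1 in thymus and 385 ± 57.9 in trachea tuft cells, against 7.52 ± 0.880 CPM in non-tuft SI. Pnpla3, a lipase of lipid droplets, was at 79.7, 108 and 62.9 in SI, 30.6, 30.7, 23.8 and 43.2 in colon, 163, 229 and 101 in gall bladder, 50.5, 70.4, 66.4 and 27.2 in thymus, 86.5, 313, 190.5 and 211 in trachea tuft libraries, against 1.26, 1.43 and 0.583 CPM in non-tuft SI. Its log2 fold change ran from 4.88 ± 0.52 (colon) to 7.52 ± 0.59 (trachea), and no library of any tuft group reached down to the reference.

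Of 17 tested genes of the taste signalling cascade, 6 were called higher in all 5 tuft groups, against 1.31% of all genes tested. These were Trpm5, Plcb2, Itpr2, Gnat3, Rgs13 and Calhm3. Per tissue the list held 8 higher calls in SI, 6 in colon, 9 in gall bladder, 13 in thymus and 12 in trachea tuft cells. Its median log2 fold change was 2.15 in SI, 0.50 in colon, 2.43 in gall bladder, 5.55 in thymus and 5.43 in trachea. The list held 1 lower call in thymus and 1 in trachea tuft cells. DESeq2 called 8 of the 17 higher in colon tuft cells and 8 higher in all 5 groups.

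Trpm5, the calcium-activated cation channel of taste cells, was at 5514, 4910 and 4180 in SI, 1147, 1097, 1059 and 1483 in colon, 5868, 5656 and 5448 in gall bladder, 967, 1205, 1142 and 1176 in thymus, 2241, 4424, 2667 and 2826 in trachea tuft libraries, against 31.3, 29.4 and 69.2 CPM in non-tuft SI. It was among the most abundant shared transcripts, and its log2 fold change ran from 4.70 ± 0.31 (thymus) to 7.03 ± 0.36 (gall bladder). Plcb2, the phospholipase that makes inositol trisphosphate, was at 867, 992 and 844 in SI, 412, 462, 394 and 567 in colon, 525, 399 and 243 in gall bladder, 1057, 1264, 1248 and 909 in thymus, 209, 718, 1039 and 486 in trachea tuft libraries, against 10.5, 12.3 and 19.8 CPM in non-tuft SI. Here thymus and not trachea was the highest tuft group, and the log2 fold change ran from 4.77 ± 0.45 (gall bladder) to 6.30 ± 0.48 (thymus). Itpr2, a receptor that releases calcium from internal stores, averaged 2311 ± 426 CPM in gall bladder and 431 ± 42.6 CPM in colon tuft cells, against 26.8 ± 2.57 CPM in non-tuft SI.

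Gnat3, the G protein subunit gustducin, had a very different profile. It was at 55.9, 33.5 and 18.4 in SI, 66.7, 114, 95.1 and 105 in colon, 16.4, 5.23 and 28.4 in gall bladder, 449.5, 656, 444 and 742 in thymus, 2673, 6932, 5600 and 6509 in trachea tuft libraries, against 3.72, 4.86 and 2.84 CPM in non-tuft SI. The gene passed in every organ, yet the trachea mean of 5428 ± 1919 CPM stood far above the gall bladder mean of 16.7 ± 11.6 CPM. Gall bladder replicate 3 lay just above the highest non-tuft library. The call of Gnat3 in all 5 groups held under 5 of the 7 alternatives that kept every library. The 5 tuft groups spanned 8.34 on the log2 scale and differed (adjusted p = 3.39e-11, edgeR). The log2 fold change of Gnat3 ran from 2.13 ± 0.48 (gall bladder) to 10.48 ± 0.68 (trachea). Calhm3, a subunit of the taste cell channel that releases ATP, was low, with 2.58 ± 2.08 CPM in colon and 40.5 ± 7.67 CPM in thymus tuft cells, against 0.412 ± 0.282 CPM in non-tuft SI. Its call in all 5 groups was lost when any 1 of 13 libraries was left out. Rgs13, a regulator that shortens G protein signals, averaged 925 ± 562 CPM in trachea and 88.5 ± 17.8 CPM in colon tuft cells, against 6.43 ± 1.02 CPM in non-tuft SI.

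Of 18 tested genes of eicosanoid synthesis and breakdown, 6 were called higher in all 5 tuft groups, against 1.31% of all genes tested. Alox5, Alox5ap and Ltc4s belong to the leukotriene branch, Ptgs1 and Hpgds to the prostaglandin branch, and Pla2g4a frees the arachidonic acid that feeds both. The list held 6 higher calls in SI, 6 in colon, 8 in gall bladder, 11 in thymus and 10 in trachea tuft cells, and 1 lower call in gall bladder, 3 in thymus and 2 in trachea. Alox5ap, which presents arachidonic acid to Alox5, was at 733, 557 and 558 in SI, 66.5, 135, 94.3 and 109 in colon, 1350, 1141 and 972 in gall bladder, 213, 268, 306 and 296 in thymus, 475, 795, 570.4 and 296 in trachea tuft libraries, against 10.1, 7.64 and 11.7 CPM in non-tuft SI. Its log2 fold change ran from 3.37 ± 0.32 (colon) to 6.88 ± 0.39 (gall bladder). Ltc4s, which makes leukotriene C4, was at 134, 120.0 and 148 in SI, 10.7, 18.8, 20.6 and 26.9 in colon, 309.8, 143 and 161 in gall bladder, 14.1, 28.2, 31.00 and 28.3 in thymus, 82.9, 49.8, 48.1 and 63.9 in trachea tuft libraries, against 1.90, 1.41 and 2.77 CPM in non-tuft SI. Colon and thymus libraries were the lowest for this enzyme, with a log2 fold change that ran from 3.24 ± 0.42 (colon) to 6.65 ± 0.50 (gall bladder).

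Ptgs1, the constitutive cyclooxygenase, averaged 785 ± 112 CPM in SI, 197 ± 26.03 in colon, 763 ± 139.8 in gall bladder, 441 ± 33.7 in thymus and 768 ± 92.4 in trachea tuft cells, against 11.7 ± 0.508 CPM in non-tuft SI. Hpgds, the synthase of prostaglandin D2, averaged 116 ± 28.2 CPM in SI, 54.8 ± 8.28 in colon, 128 ± 32.1 in gall bladder, 94.3 ± 16.97 in thymus and 46.7 ± 17.3 in trachea tuft cells, against 3.83 ± 0.942 CPM in non-tuft SI. Pla2g4a was the smallest change of the group. It was at 53.3, 55.1 and 62.4 in SI, 35.9, 48.4, 28.5 and 24.3 in colon, 49.2, 40.1 and 36.02 in gall bladder, 72.1, 54.7, 65.8 and 51.3 in thymus, 41.2, 24.5, 42.7 and 37.1 in trachea tuft libraries, against 19.9, 10.4 and 12.9 CPM in non-tuft SI, and its log2 fold change ran from 1.25 ± 0.35 (colon) to 2.08 ± 0.36 (thymus). Its call was lost without non-tuft SI replicate 2 or 3 or colon replicate 1 or 2.

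Chat was the 1 gene of 10 tested for acetylcholine handling that was called in all 5 tuft groups. Of 13 tested genes of IL-25 and the type 2 receptors, Il25 and Il17rb were called higher in all 5. Il25 averaged 24.7 ± 2.38 CPM in SI, 9.45 ± 4.74 in colon, 25.3 ± 17.2 in gall bladder, 20.1 ± 13.4 in thymus and 30.9 ± 22.2 in trachea tuft cells, against 0.279 ± 0.153 CPM in non-tuft SI. The reporter at Il25 chose the cells, so this is a check of the sort and no independent result. Il17rb encodes a subunit of the receptor for IL-25. It was at 792, 732 and 603 in SI, 187, 169, 162 and 237 in colon, 279, 62.2 and 147 in gall bladder, 229, 208, 291 and 237 in thymus, 145, 219, 247 and 252 in trachea tuft libraries, against 10.3, 9.33 and 14.8 CPM in non-tuft SI. SI tuft cells had the most, the other 4 groups lay closer together, and the log2 fold change ran from 3.83 ± 0.40 (gall bladder) to 5.95 ± 0.45 (SI).

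By number of genes, the largest listed block was signalling of the leukocyte type, which was also the longest list. Of 41 tested genes, 20 were called higher in all 5 tuft groups, against 1.31% of all genes tested. There were 23 higher calls in SI, 20 in colon, 27 in gall bladder, 25 in thymus and 23 in trachea tuft cells. The list also held 1 lower call in SI, 1 in colon, 4 in gall bladder and 4 in trachea tuft cells. The shared genes included Bmx, Csk, Fyb, Inpp5d, Lrmp, Matk, Pik3cg, Pik3r5, Plcg2, Pstpip1, Pstpip2, Ptpn18, Ptpn6, Ptprc, Rac2, Sh2d6, Sh2d7, Skap2 and Vav1. All 20 higher calls of the list in colon tuft cells were thus shared by the other 4 groups. The call of Csk was lost without any of the non-tuft SI libraries or without colon replicate 3 or 4, and that of Pstpip2 without gall bladder replicate 4.

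Pik3cg and Pik3r5 encode the catalytic and a regulatory subunit of phosphoinositide 3-kinase gamma, which acts below G protein-coupled receptors. Pik3cg was at 396, 304 and 334 in SI, 226, 181, 247 and 246 in colon, 497, 586 and 537 in gall bladder, 318, 289, 296 and 289 in thymus, 986, 1462, 1129 and 1232 in trachea tuft libraries, against 6.61, 6.21 and 7.97 CPM in non-tuft SI. Trachea libraries were the highest, and the log2 fold change ran from 5.02 ± 0.23 (colon) to 7.44 ± 0.26 (trachea). Pik3r5 was more abundant, with 3912 ± 1210 CPM in SI, 945 ± 112 in colon, 3744 ± 417 in gall bladder, 1970 ± 272 in thymus and 6208 ± 2677 in trachea tuft cells, against 51.4 ± 7.60 CPM in non-tuft SI. Inpp5d, the phosphatase SHIP1 that acts on the lipid product of such kinases, averaged 462 ± 124 CPM in gall bladder and 107 ± 25.2 CPM in colon tuft cells, against 5.47 ± 0.319 CPM in non-tuft SI.

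Vav1, an exchange factor for small GTPases, was at 1219, 1291 and 1140 in SI, 219, 241, 227 and 314 in colon, 1818, 1350 and 1381 in gall bladder, 281, 367, 326 and 287 in thymus, 388, 582, 397 and 491 in trachea tuft libraries, against 10.5, 8.96 and 16.4 CPM in non-tuft SI. The log2 fold change of Vav1 ran from 4.39 ± 0.27 (colon) to 6.99 ± 0.31 (gall bladder). Rac2, the GTPase of blood cells that Vav1 can activate, averaged 1532 ± 313 CPM in SI and 166 ± 45.6 CPM in colon tuft cells, against 22.3 ± 3.48 CPM in non-tuft SI. Sh2d6 and Sh2d7 are SH2-domain adaptors. Sh2d6 reached 12983 ± 2568 CPM in SI, 2274 ± 350.4 in colon, 7775 ± 311 in gall bladder, 1300 ± 207 in thymus and 2478 ± 830.3 in trachea tuft cells, against 123 ± 51.8 CPM in non-tuft SI. Plcg2, a phospholipase of receptor signalling, averaged 910.0 ± 136 CPM in gall bladder and 139 ± 19.1 CPM in thymus tuft cells, against 17.98 ± 4.24 CPM in non-tuft SI. Ptpn6, the phosphatase SHP-1, averaged 987 ± 229 CPM in SI and 175 ± 50.6 CPM in colon tuft cells, against 18.7 ± 2.80 CPM in non-tuft SI. Both enzymes act below immune receptors. Pstpip1, a cytoskeletal adaptor, averaged 244 ± 40.8 CPM in gall bladder and 34.96 ± 10.1 CPM in thymus tuft cells, against 1.01 ± 0.421 CPM in non-tuft SI, and its log2 fold change ran from 5.10 ± 0.50 (thymus) to 7.90 ± 0.58 (gall bladder).

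Among the kinases, Matk spread widely between organs. Matk, a Csk-related kinase, was at 1855, 2374 and 2239 in SI, 524, 614, 815 and 956 in colon, 79.03, 98.3 and 120.2 in gall bladder, 51.1, 71.3, 76.8 and 46.4 in thymus, 57.4, 118, 174 and 61.4 in trachea tuft libraries, against 20.4, 15.7 and 25.6 CPM in non-tuft SI. The intestinal tuft groups stood far above the other 3, and the 5 groups differed (adjusted p = 1.18e-10, edgeR). Bmx, a Tec-family kinase, averaged 738 ± 304 CPM in trachea and 73.7 ± 10.98 CPM in colon tuft cells, against 8.51 ± 0.156 CPM in non-tuft SI.

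Ptprc encodes CD45, against which the cells were sorted. It was at 126, 159 and 163 in SI, 80.5, 108, 122 and 121 in colon, 169, 164 and 99.9 in gall bladder, 48.1, 70.1, 56.9 and 67.98 in thymus, 100.4, 9.41, 31.97 and 54.4 in trachea tuft libraries, against 9.43, 7.09 and 2.52 CPM in non-tuft SI. Trachea pool 2 lay just below the highest non-tuft library, so the groups overlapped, and the log2 fold change ran from 2.95 ± 0.56 (trachea) to 4.55 ± 0.62 (SI). Markers of leukocyte types were summed in the same libraries. The 9 tested T cell and thymocyte markers summed to 22.8 to 32.5 CPM in SI tuft, 3.79 to 5.74 in colon tuft, 19.9 to 43.0 in gall bladder tuft, 9.04 to 29.6 in thymus tuft and 0.0353 to 2.62 CPM in trachea tuft libraries, against 2.64 to 5.94 CPM in non-tuft SI.

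The 4 B cell markers summed to 3.33 to 6.28 CPM in SI tuft, 0.696 to 3.96 in colon tuft, 30.3 to 111.4 in gall bladder tuft, 79.0 to 114.8 in thymus tuft and 0 to 126.3 CPM in trachea tuft libraries, against 1.46 to 2.60 CPM in non-tuft SI. The 10 myeloid markers summed to 25.9 to 55.6 CPM in SI tuft, 6.45 to 26.2 in colon tuft, 42.7 to 71.9 in gall bladder tuft, 235.7 to 299.5 in thymus tuft and 1747 to 3835 CPM in trachea tuft libraries, against 22.9 to 25.5 CPM in non-tuft SI. Lyz2, which airway epithelium also expresses, made up most of the trachea sum. Without Lyz2 the sums were 24.2 to 43.7 CPM in SI tuft, 4.30 to 18.6 in colon tuft, 24.6 to 71.6 in gall bladder tuft, 69.5 to 118 in thymus tuft and 4.73 to 38.2 CPM in trachea tuft libraries, against 19.3 to 21.8 CPM in non-tuft SI. Cd8b1 had no read in any colon tuft library, Itgax none in gall bladder tuft and Fcer1g none in trachea tuft libraries. Jchain had none in SI, gall bladder and trachea tuft libraries or in non-tuft SI. Of the 9 T cell markers, 2 had no read in any non-tuft SI library. None of the tested T cell, B cell or myeloid markers was called higher in all 5 tuft groups. Thymus tuft cells held higher calls for 4 of 9 T cell, 3 of 4 B cell and 4 of 10 myeloid markers. None was lower there, and 17.2% of all genes tested were called higher in that contrast. SI tuft cells held 1 higher T cell call, gall bladder 1 on each list, trachea 1 B cell and 1 myeloid call, and colon none. Lower calls were 1 myeloid marker in gall bladder and 1 T cell and 2 myeloid markers in trachea. In colon tuft cells the T cell sums lay within the range of non-tuft SI and the myeloid sums without Lyz2 below it, while in SI tuft cells both lay above that range. Of 8 tested fibroblast and muscle markers, 7 were called higher in thymus, 2 in trachea and 1 in colon tuft cells, and none was called lower. The part of leukocyte RNA in the signalling values was not tested in any tuft group.

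Kit, a receptor tyrosine kinase, was the 1 gene of 4 mast cell markers called higher in all 5 tuft groups, and its call was lost when any 1 of 14 libraries was left out. The other 3, Cpa3, Fcer1a and Cma1, averaged at most 1.73 ± 2.33 CPM in any tuft group. In thymus tuft cells 3 of the 4 markers were nevertheless called higher, Kit among them. Each other tuft group held 1 higher call, and no tuft group held a lower call. Kit averaged 67.7 ± 4.90 CPM in SI, 122 ± 12.8 in colon, 329 ± 111 in gall bladder, 198 ± 51.9 in thymus and 307 ± 157 in trachea tuft cells, against 29.9 ± 7.25 CPM in non-tuft SI.

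Of 20 tested genes for cytoskeleton, bundling and keratins, 5 were called higher in all 5 tuft groups, against 1.31% of all genes tested. Avil, an actin-severing relative of villin, was at 2993, 2389 and 2193 in SI, 333, 431, 303 and 383 in colon, 2608, 2238 and 2396 in gall bladder, 808, 870.0, 986 and 1077 in thymus, 783, 776, 907 and 623 in trachea tuft libraries, against 21.5, 21.1 and 55.03 CPM in non-tuft SI. Its log2 fold change ran from 3.48 ± 0.30 (colon) to 6.28 ± 0.35 (SI). Espn, which bundles actin in microvilli and stereocilia, averaged 639 ± 85.2 CPM in SI, 169 ± 30.6 in colon, 690.1 ± 371 in gall bladder, 160.4 ± 15.03 in thymus and 149 ± 32.4 in trachea tuft cells, against 43.2 ± 6.12 CPM in non-tuft SI. Tuba1a, an alpha-tubulin, averaged 660.3 ± 233 CPM in gall bladder and 83.3 ± 14.6 CPM in colon tuft cells, against 24.7 ± 4.68 CPM in non-tuft SI. Dclk1 was among the 5 as well.

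Genes whose mean reached 20 CPM in every tuft group were ranked by the smallest of their 5 fold changes. Fyb stood at the head of those reported here, followed by Pstpip1, Dclk1, Pik3cg, Chat, Nxpe2, Hmx3, Pnpla3, Alox5, Plcb2 and Trpm5. Nxpe2 was at 43.1, 27.6 and 36.7 in SI, 190.2, 181, 157 and 119.8 in colon, 33.5, 26.2 and 63.98 in gall bladder, 34.96, 31.02, 25.9 and 42.02 in thymus, 13.7, 81.3, 42.6 and 93.7 in trachea tuft libraries, against 0.719, 1.08 and 1.34 CPM in non-tuft SI. It was 1 of 4 shared genes with their highest mean in colon tuft cells. Itprid1 averaged 82.6 ± 13.2 CPM in thymus and 322 ± 67.4 CPM in trachea tuft cells, against 3.37 ± 0.431 CPM in non-tuft SI.

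Other genes of that rank belong to none of the lists. Pygl, the liver form of glycogen phosphorylase, averaged 269 ± 12.96 CPM in SI, 139 ± 19.1 in colon, 310.2 ± 11.9 in gall bladder, 176 ± 26.3 in thymus and 160.2 ± 16.5 in trachea tuft cells, against 5.77 ± 1.30 CPM in non-tuft SI. Adgrg2, an adhesion G protein-coupled receptor, averaged 42.4 ± 15.8 CPM in colon and 547 ± 285 CPM in trachea tuft cells, against 1.82 ± 0.516 CPM in non-tuft SI. Dscaml1, a cell adhesion molecule of the nervous system, averaged 20.4 ± 3.91 CPM in colon and 184 ± 116 CPM in gall bladder tuft cells, against 0.969 ± 0.0961 CPM in non-tuft SI. These 3 changed by at least 4.59, 4.54 and 4.40 on the log2 scale, each of them smallest in colon tuft cells. Ildr1, a protein of tricellular junctions, averaged 86.5 ± 3.85 CPM in SI and 191 ± 71.9 CPM in trachea tuft cells, against 4.24 ± 1.91 CPM in non-tuft SI. Ly6g6f averaged 423 ± 143 CPM in gall bladder and 43.2 ± 14.9 CPM in trachea tuft cells, against 2.15 ± 0.882 CPM in non-tuft SI.

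The shared genes still differed between organs. Of the 266 genes, 240 (90.2%) differed between the 5 tuft groups in edgeR's test over those groups, against 62% of all genes tested. Among genes with at least 20 CPM in every tuft group the shares were 165 of 183 (90.2%) for the shared genes and 2524 of 4171 (60.5%) for all. The median spread between the highest and lowest tuft group was 2.50 on the log2 scale, against 3.67 over all genes tested. These medians were not matched at 20 CPM. They cannot show whether shared genes spread less than other genes of like level.

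The highest group was gall bladder tuft for 120 genes (45.1%, against 21.3% of all genes tested) and trachea tuft for 72 (27.1%, against 24.9%). It was SI tuft for 50 (18.8%, against 14.8%), thymus tuft for 20 (7.52%, against 24.6%) and colon tuft for 4 (1.5%, against 14.4%). The lowest group was colon tuft for 141 genes and thymus tuft for 61. It was SI tuft for 31, trachea tuft for 21 and gall bladder tuft for 12. The lowest group was not counted over all genes tested, so these counts have no share to be set against. The plot of the highest group per gene shows gall bladder in front for the shared higher genes. No test of these shares was made.

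**Figure D2:**
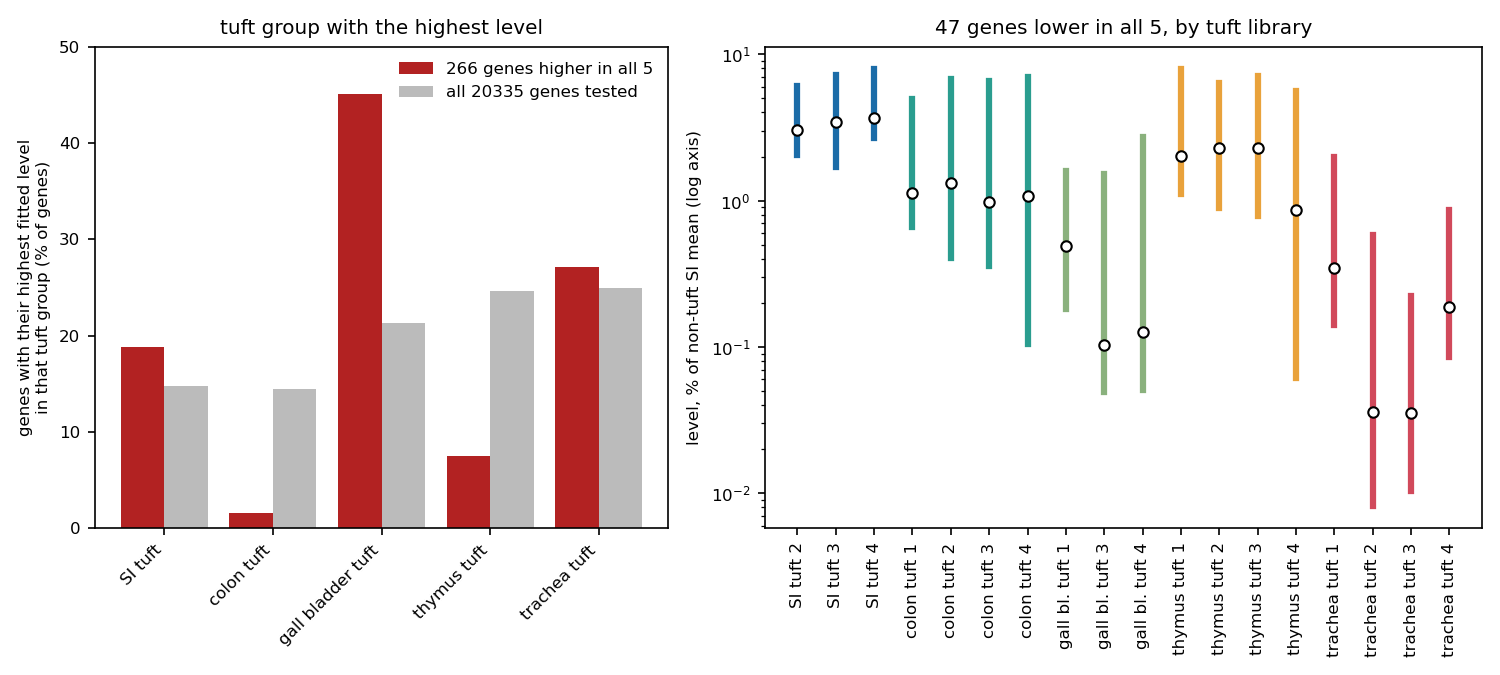
Left, percent of genes whose highest tuft mean lay in each tuft group, for the 266 genes higher in all 5 tuft groups and for all genes tested. Right, level of the genes lower in all 5 tuft groups as a percent of the mean of non-tuft SI, with the median over 47 genes as a point and the quartiles as a bar for each tuft library, on a log axis. Gall bladder holds 45.1% of the higher genes, and the trachea and gall bladder libraries hold the lowest residual levels.

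The widest spreads among ranked genes included those of Matk, Stox2, Slc41a3, Atp11a and Plekhs1. Stox2 averaged 20.9 ± 9.90 CPM in SI, 58.3 ± 10.2 in colon, 114 ± 57.3 in gall bladder, 159.8 ± 15.5 in thymus and 556 ± 203 in trachea tuft cells, against 2.89 ± 0.259 CPM in non-tuft SI. Slc41a3, a magnesium transporter, had another order, with 405 ± 82.97 CPM in gall bladder and 21.3 ± 8.04 CPM in colon tuft cells, against 3.55 ± 0.424 CPM in non-tuft SI. Atp11a, a phospholipid flippase, averaged 503 ± 143 CPM in trachea and 27.4 ± 6.15 CPM in SI tuft cells, against 11.5 ± 1.62 CPM in non-tuft SI. Its SI change was 1.26 ± 0.32 on the log2 scale, a call that was lost without non-tuft SI replicate 1 or 3 or SI tuft replicate 2 or 3. Plekhs1 averaged 345 ± 123 CPM in gall bladder and 20.6 ± 19.2 CPM in trachea tuft cells, against 3.04 ± 0.0610 CPM in non-tuft SI. Muc1, a membrane mucin on the biliary list and outside these ranks, was at 8.37, 3.88 and 8.61 in SI, 18.5, 27.2, 8.09 and 21.99 in colon, 1750, 1388 and 1726 in gall bladder, 202, 125, 207 and 180.0 in thymus, 1489, 557, 1241 and 651 in trachea tuft libraries, against 1.49, 0.939 and 1.34 CPM in non-tuft SI. It spanned 7.87 on the log2 scale between tuft groups.

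The narrowest included Gtf3c1, Pbxip1, Ptprj, Hk1 and Slc2a1. Their spreads lay under the minimum of 1 on the log2 scale for a call between tuft groups. None of these 5 could therefore be called, whatever its p. Hk1, a hexokinase that starts glucose use, was at 72.2, 80.2 and 118 in SI, 93.7, 109, 118 and 144 in colon, 179.8, 121 and 109 in gall bladder, 71.9, 77.4, 111 and 91.4 in thymus, 111, 43.3, 50.4 and 149 in trachea tuft libraries, against 16.5, 18.7 and 12.3 CPM in non-tuft SI. Its spread between tuft groups was 0.64 on the log2 scale (adjusted p = 0.353, edgeR), while the change against non-tuft SI ran from 2.47 ± 0.40 (thymus) to 3.11 ± 0.42 (gall bladder). Slc2a1, the glucose transporter GLUT1, averaged 868 ± 149.8 CPM in SI, 541 ± 67.4 in colon, 559.6 ± 118 in gall bladder, 667 ± 106 in thymus and 623 ± 199.8 in trachea tuft cells, against 159 ± 11.5 CPM in non-tuft SI. The tuft groups spanned 0.68 on the log2 scale for this gene (adjusted p = 0.0779, edgeR). Pbxip1, which binds PBX homeodomain proteins, averaged 127 ± 32.95 CPM in thymus and 174 ± 17.03 CPM in SI tuft cells, against 47.7 ± 3.96 CPM in non-tuft SI. Ptprj, a receptor tyrosine phosphatase, averaged 122 ± 12.4 CPM in SI and 171 ± 19.8 CPM in trachea tuft cells, against 33.6 ± 2.77 CPM in non-tuft SI. Gtf3c1, a subunit of transcription factor IIIC, averaged 228 ± 23.3 CPM in colon and 312 ± 47.4 CPM in SI tuft cells, against 109.9 ± 16.9 CPM in non-tuft SI, and its call was lost without non-tuft SI replicate 1 or colon replicate 1.

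Just inside the call were Bglap3, Kit and Map3k3, whose largest adjusted p over the 5 contrasts was 0.0491, 0.0487 and 0.0479 (edgeR). Bglap3 averaged 1247 ± 509 CPM in gall bladder but 7.75 ± 5.88 CPM in trachea tuft cells, against 1.89 ± 0.473 CPM in non-tuft SI. Map3k3, a kinase of MAP kinase cascades, averaged 64.3 ± 0.698 CPM in SI and 36.1 ± 19.2 CPM in gall bladder tuft cells, against 14.00 ± 0.738 CPM in non-tuft SI. Just outside were Trim46 with an adjusted p of 0.0508 in thymus, Rab11fip5 with 0.0508 in colon and Cbr2 with 0.0523 in SI. Their log2 fold changes in those groups were 1.89 ± 0.71, 3.93 ± 1.22 and 3.60 ± 1.10.

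Of the 61 genes called lower in all 5 tuft groups, 56 code for proteins. In every one the highest of the 18 tuft libraries lay below the lowest non-tuft library. These genes too were chosen by direction and size, and such separation was not counted over all genes tested. The goblet, Paneth and enteroendocrine lists held 27 of them (44.3%). The median log2 fold change was -5.29 in SI, -6.85 in colon, -8.58 in gall bladder, -6.00 in thymus and -8.87 in trachea tuft cells. Some groups had no read of a gene in any library, namely for 6 genes in SI, 6 in colon, 9 in gall bladder, 2 in thymus and 10 in trachea. With these set to a floor of 3 counts per group, the medians were -5.10, -6.53, -7.98, -5.88 and -8.59 in the same order of groups. The number of genes changed with the libraries used, and it fell whichever SI tuft or non-tuft SI library was left out. It ran from 25 to 77 as each library was left out, with 25, 27 and 31 genes without SI tuft replicate 2, 3 or 4 and 32, 31 and 32 without non-tuft SI replicate 1, 2 or 3. With each tuft group fitted beside the reference alone it was 215, and with limma voom and sample weights 386. All 61 kept a log2 fold change of -1 or below in all 5 groups under each other setting tried, except 1 gene without gall bladder replicate 3. Of 37 named lower genes, 22 missed the call in at least 1 group when some 1 library was left out, namely Ang4, Bcas1, Capn9, Clps, Ido1, Chgb, Cpe, Sct, Nts, Scg2, Ffar1, Snap25, Olfm4, Serpina1b, Serpina1e and 7 alpha-defensins.

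Goblet cells make the mucus of the gut. Of 14 tested goblet genes, 8 were called lower in all 5 tuft groups, while the share over all tested genes was 0.3%. These were Zg16, Tff3, Clca1, Fcgbp, Spink4, Capn9, Bcas1 and Fer1l6. Per tissue the list held 13 lower calls in SI, 9 in colon, 13 in gall bladder, 13 in thymus and 11 in trachea tuft cells. The summed level of the list was 2211 to 2703 CPM in SI tuft, 7617 to 10080 in colon tuft, 222 to 668 in gall bladder tuft, 1785 to 2712 in thymus tuft and 859 to 2442 CPM in trachea tuft libraries, against 105100 to 115400 CPM in non-tuft SI.

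Zg16 (ENSMUSG00000049350, chr7:127050156-127087328, minus strand), a lectin of mucus granules, was at 392, 514 and 475 in SI, 230.0, 182, 228 and 193 in colon, 40.2, 4.62 and 8.62 in gall bladder, 254, 185, 163 and 1.29 in thymus, 30.8, 1.68, 2.84 and 6.71 in trachea tuft libraries, against 25117, 24795 and 27716 CPM in non-tuft SI. The reference was higher in all pairs of libraries, and the log2 fold change ran from -5.81 ± 1.24 (SI) to -11.27 ± 1.35 (trachea). Tff3 (ENSMUSG00000024029, chr17:31125306-31129646, minus strand), a trefoil peptide secreted with mucin, was at 371, 285 and 355 in SI, 124, 134, 149.9 and 138 in colon, 77.2, 8.81 and 40.2 in gall bladder, 135, 137, 108 and 3.58 in thymus, 48.1, 1.43, 1.48 and 17.1 in trachea tuft libraries, against 14993, 18124 and 14218 CPM in non-tuft SI. Thymus replicate 4 stood well below the other 3 for both genes, and the Tff3 log2 fold change ran from -5.55 ± 1.19 (SI) to -9.86 ± 1.26 (trachea). Clca1, a secreted mucus protease, averaged 286 ± 63.5 CPM in SI, 437 ± 44.4 in colon, 85.3 ± 85.4 in gall bladder, 99.9 ± 24.2 in thymus and 353 ± 334 in trachea tuft cells, against 10413 ± 162 CPM in non-tuft SI.

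Fcgbp, a large protein of the mucus gel, kept the highest level in thymus tuft cells, with 1639 ± 141 CPM there and 136 ± 123 CPM in trachea tuft cells, against 22951 ± 2568 CPM in non-tuft SI. Capn9, a calpain of gastrointestinal mucous cells, averaged 4.51 ± 7.02 CPM in thymus and 0.135 ± 0.193 CPM in trachea tuft cells, against 122 ± 19.5 CPM in non-tuft SI.

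Spink4, a protease inhibitor of goblet cells, averaged 49.7 ± 7.48 CPM in colon and 2.66 ± 3.28 CPM in trachea tuft cells, against 774 ± 178 CPM in non-tuft SI. Fer1l6 averaged 28.00 ± 13.1 CPM in trachea and 1.58 ± 1.505 CPM in gall bladder tuft cells, against 333 ± 53.2 CPM in non-tuft SI. Bcas1 averaged 20.5 ± 2.90 CPM in colon and 0.331 ± 0.330 CPM in gall bladder tuft cells, against 150.2 ± 8.24 CPM in non-tuft SI. Colon tuft cells thus kept the most Spink4 and Bcas1 of the 5 groups.

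Paneth cells sit at the crypt base of the small intestine and secrete antimicrobial proteins. Of 14 tested Paneth genes, 10 were called lower in all 5 tuft groups, against 0.3% of all genes tested. There were 12 lower calls in SI, 14 in colon, 12 in gall bladder, 14 in thymus and 14 in trachea tuft cells. The count of 10 fell to 4 when SI tuft replicate 2 or 3 was left out. The list summed to 149.4 to 546.7 CPM in SI tuft, 21.1 to 98.1 in colon tuft, 133.4 to 243.6 in gall bladder tuft, 158.3 to 367.5 in thymus tuft and 7.38 to 157.2 CPM in trachea tuft libraries, against 13090 to 17230 CPM in non-tuft SI.

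Lyz1, the Paneth cell lysozyme, was at 115, 44.4 and 215 in SI, 27.1, 20.9, 16.8 and 3.68 in colon, 1.39, 0.358 and 1.54 in gall bladder, 192, 121, 237 and 129 in thymus, 37.7, 2.10, 3.12 and 0.847 in trachea tuft libraries, against 4723, 5767 and 5251 CPM in non-tuft SI. Gall bladder libraries lay lowest, the reference stood above every tuft library, and the log2 fold change ran from -4.95 ± 0.94 (thymus) to -12.20 ± 1.45 (gall bladder). Mptx2, a pentraxin of mouse Paneth cells, was at 1.99, 0.125 and 0.538 in SI, 1.09, 0.718, 0.446 and 0 in colon, 0.0760, 0.0716 and 0 in gall bladder, 2.23, 1.03, 0.874 and 0.0186 in thymus, 0.0281, 0, 0 and 0.282 in trachea tuft libraries, against 122, 120.0 and 212 CPM in non-tuft SI. It stood first among the lower genes when they were ranked by the smallest of their 5 changes, which ran from -7.18 ± 1.40 (thymus) to -11.54 ± 1.97 (gall bladder). Itln1, a lectin that binds microbial sugars, averaged 88.8 ± 40.7 CPM in SI, 11.4 ± 6.12 in colon, 16.5 ± 16.7 in gall bladder, 30.4 ± 15.8 in thymus and 53.2 ± 64.7 in trachea tuft cells, against 2571 ± 397 CPM in non-tuft SI.

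Ang4, an antimicrobial ribonuclease, averaged 7.54 ± 2.03 CPM in colon and 19.8 ± 17.8 CPM in gall bladder tuft cells, against 446 ± 43.5 CPM in non-tuft SI. Clps, the colipase that assists fat digestion, averaged 11.7 ± 2.90 CPM in SI and 3.70 ± 4.74 CPM in trachea tuft cells, against 502 ± 32.1 CPM in non-tuft SI. Alpha-defensins, the main antimicrobial peptides of these cells, made up 11 of the 61 genes by symbol. Defa24 averaged 62.9 ± 34.1 CPM in SI and 2.31 ± 1.75 CPM in gall bladder tuft cells, against 2999 ± 1021 CPM in non-tuft SI. Defa26 had no read in any trachea library and averaged 0.477 ± 0.455 CPM in SI tuft cells, against 26.1 ± 3.28 CPM in non-tuft SI. AY761184, a defensin-like gene, averaged 44.8 ± 24.4 CPM in SI tuft cells, against 2633 ± 146 CPM in non-tuft SI. Defa30, Defa17 and Defa3 averaged 44.99 ± 26.3, 11.9 ± 6.03 and 1.09 ± 0.510 CPM in SI tuft cells, against 2276 ± 201, 555 ± 139.6 and 43.3 ± 14.1 CPM in non-tuft SI. Defensin genes are near-identical copies, so how reads divide between them is uncertain.

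**Figure D3:**
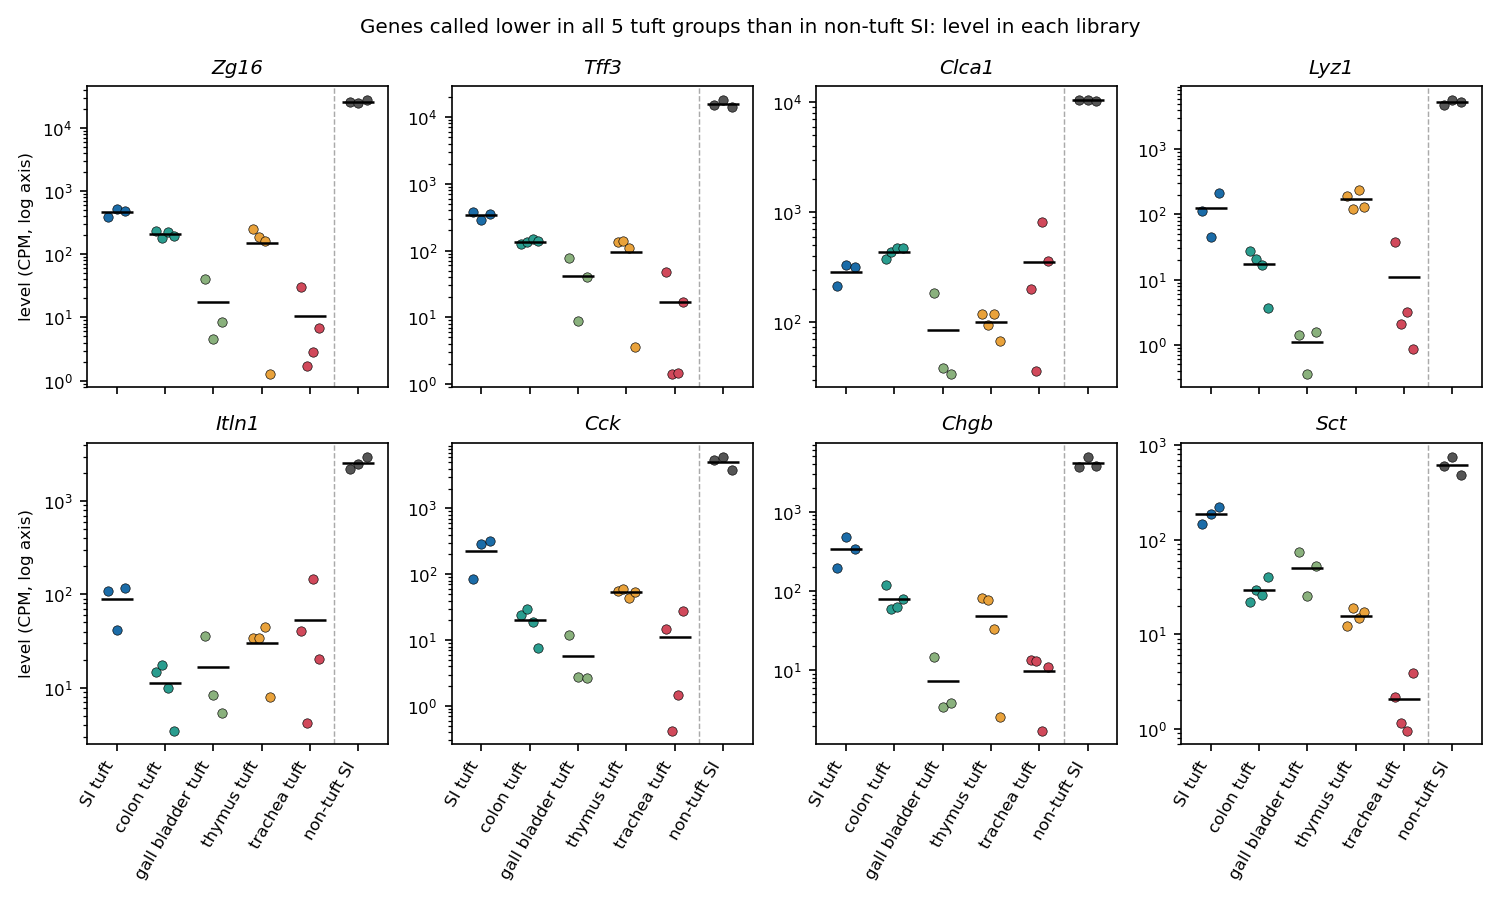
Levels of 8 genes called lower in all 5 tuft groups, in CPM on a log axis. Each point is 1 library and each bar the mean of a group, with the 5 tuft groups to the left of non-tuft SI. All 3 non-tuft libraries lie above every tuft library for each gene, and the tuft groups differ widely among themselves, as in Lyz1 and Cck.

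The plot of lower genes by library shows that trachea and gall bladder libraries often lay near 0 while SI tuft libraries kept low but measurable counts.

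Enteroendocrine cells secrete gut hormones. Of 25 tested genes, 9 were called lower in all 5 tuft groups, against 0.3% of all genes tested. They were the hormone genes Cck, Gip, Sct and Nts, the granule proteins Chga, Chgb and Scg2, the processing enzyme Cpe and Tph1, which makes serotonin. Per tissue the list held 15 lower calls in SI, 18 in colon, 24 in gall bladder, 19 in thymus and 23 in trachea tuft cells, and 1 higher call in thymus. The count of 9 fell to 4 without SI tuft replicate 2 and to 5 without non-tuft SI replicate 2.

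Cck (ENSMUSG00000032532, chr9:121489824-121495694, minus strand), cholecystokinin, was at 83.5, 287 and 315 in SI, 24.3, 29.4, 19.03 and 7.71 in colon, 11.9, 2.76 and 2.67 in gall bladder, 55.7, 60.5, 43.9 and 53.5 in thymus, 14.8, 0.424, 1.48 and 27.96 in trachea tuft libraries, against 5372, 6132 and 3786 CPM in non-tuft SI. SI tuft libraries kept the most of it, and the log2 fold change ran from -4.48 ± 1.01 (SI) to -9.78 ± 1.27 (gall bladder). Chgb, a chromogranin of dense-core granules, was at 196, 478 and 338 in SI, 118, 58.4, 63.05 and 79.97 in colon, 14.6, 3.44 and 3.84 in gall bladder, 82.5, 75.8, 32.6 and 2.59 in thymus, 13.6, 13.2, 1.73 and 10.9 in trachea tuft libraries, against 3673, 4950 and 3810 CPM in non-tuft SI. The log2 fold change of Chgb ran from -3.62 ± 0.85 (SI) to -9.15 ± 1.10 (gall bladder). Sct, secretin, changed least in SI. It averaged 184 ± 35.7 CPM in SI, 29.2 ± 7.83 in colon, 50.4 ± 24.1 in gall bladder, 15.8 ± 2.82 in thymus and 2.05 ± 1.36 in trachea tuft cells, against 607 ± 139 CPM in non-tuft SI, and its log2 fold change ran from -1.72 ± 0.44 (SI) to -8.22 ± 0.51 (trachea).

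Gip averaged 20.4 ± 12.3 CPM in SI and 0.507 ± 0.462 CPM in trachea tuft cells, against 521 ± 79.6 CPM in non-tuft SI. Nts, neurotensin, averaged 9.37 ± 3.54 CPM in thymus and 0.106 ± 0.157 CPM in trachea tuft cells, against 53.8 ± 8.22 CPM in non-tuft SI. Trachea tuft libraries were close to 0 for both hormones. Tph1 averaged 14.9 ± 2.05 CPM in SI and 0.336 ± 0.278 CPM in trachea tuft cells, against 266 ± 24.8 CPM in non-tuft SI. Chga, the chromogranin A gene, averaged 38.2 ± 19.6 CPM in thymus and 0.864 ± 1.03 CPM in trachea tuft cells, against 523 ± 113 CPM in non-tuft SI. The granule protein Scg2 averaged 17.7 ± 7.66 CPM in thymus and 0.222 ± 0.248 CPM in trachea tuft cells, against 195 ± 5.67 CPM in non-tuft SI. Thymus and SI thus kept more of these granule transcripts than trachea. Snap25, a SNARE protein of regulated secretion, was the 1 gene of 20 for vesicle fusion that was lower in all 5. It averaged 15.5 ± 3.15 CPM in SI and 0.345 ± 0.360 CPM in gall bladder tuft cells, against 159.8 ± 21.8 CPM in non-tuft SI.

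Ffar1, a receptor for long-chain fatty acids found on hormone cells, was the 1 gene of 17 metabolite and lipid receptors that was lower in all 5. It had no read in any SI, colon, gall bladder or trachea tuft library and averaged 0.0186 ± 0.0219 CPM in thymus tuft cells, against 1.39 ± 0.109 CPM in non-tuft SI. Olfm4, a marker of crypt base cells, was the 1 gene of 10 stem cell genes. It averaged 82.4 ± 23.3 CPM in SI, 2.28 ± 1.56 in colon, 14.9 ± 13.4 in gall bladder, 40.8 ± 17.02 in thymus and 0.254 ± 0.266 in trachea tuft cells, against 612 ± 97.9 CPM in non-tuft SI. Ido1, which breaks down tryptophan, averaged 12.99 ± 1.81 CPM in SI and 0.606 ± 1.04 CPM in trachea tuft cells, against 453 ± 28.6 CPM in non-tuft SI. Serpina1b and Serpina1e, near-identical protease inhibitor genes, averaged 0.720 ± 0.805 and 1.41 ± 0.472 CPM in SI tuft cells, against 23.6 ± 4.66 and 35.9 ± 4.26 CPM in non-tuft SI.

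The enterocyte and proliferation lists held no gene called in all 5 tuft groups. None of 20 tested enterocyte genes was lower in all 5 tuft groups. In SI tuft cells edgeR called 1 of the list higher and 0 lower; at an unadjusted p below 0.05, 2 were higher and 0 lower, and DESeq2 also called 0 lower. By edgeR 18 were lower in colon, 18 in gall bladder, 20 in thymus and 19 in trachea tuft cells. Enterocyte genes summed to 39020 to 45100 CPM in SI tuft libraries and to 370.7 to 1725 CPM over all libraries of the other 4 tuft groups, against 22880 to 24520 CPM in non-tuft SI. Proliferation genes, 27 tested, likewise held no gene called lower in all 5, but their summed level was lower in every tuft library than in any non-tuft library. It was 662.0 to 955.0 CPM in SI, 1414 to 2044 in colon, 101.0 to 208.9 in gall bladder, 154.1 to 245.2 in thymus and 157.4 to 210.5 CPM in trachea tuft libraries, against 2532 to 3323 CPM in non-tuft SI. EdgeR called 18 of the 27 lower in gall bladder, 22 in thymus and 22 in trachea tuft cells and 0 in SI and colon tuft cells. In SI, 12 were lower at an unadjusted p below 0.05 and DESeq2 called 5, and in colon both counts were 0. The median log2 fold change of the list was -1.86 in SI, -1.04 in colon, -4.76 in gall bladder, -4.48 in thymus and -5.07 in trachea. The map of fold changes by gene shows shared members of 8 of the lists.

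**Figure D4:**
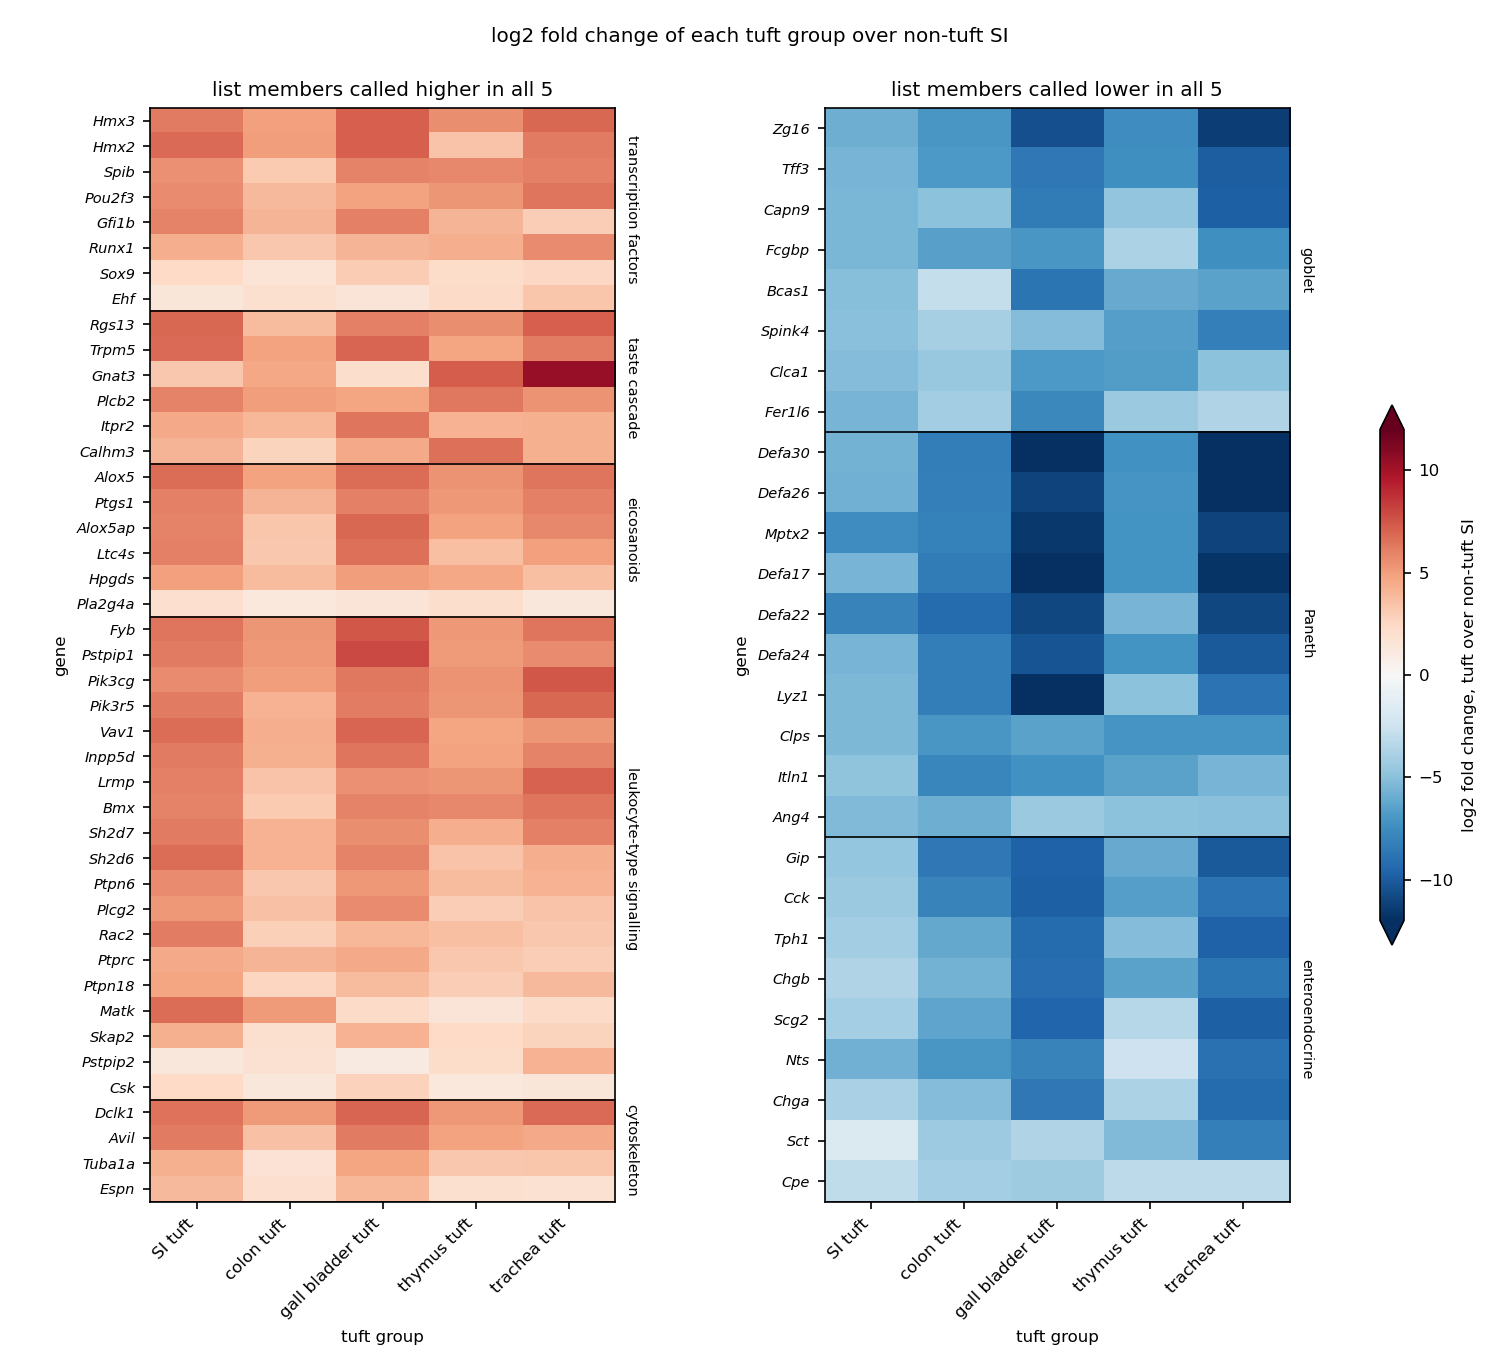
Log2 fold change over non-tuft SI, 1 row per gene and 1 column per tuft group, for genes called in all 5 tuft groups and reported here. On the left are higher genes of the transcription factor, taste, eicosanoid, leukocyte-type and cytoskeleton lists, and on the right lower genes of the goblet, Paneth and enteroendocrine lists. Red is higher, blue is lower and colours saturate beyond 12 and -12. The cells of Defa26 in trachea and of Defa22 in trachea and gall bladder, where no read was found, show fitted values. Every cell on the left is red and every cell on the right is blue, and the blue deepens from SI tuft to gall bladder and trachea tuft for most Paneth and enteroendocrine genes.

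The lower genes kept different residual levels. Over the 47 of them with at least 20 CPM in the reference, the median level in a tuft library was 3.03 to 3.69% of the non-tuft SI mean in SI tuft and 0.973 to 1.32% in colon tuft libraries. It was 0.103 to 0.489% in gall bladder and 0.0354 to 0.346% in trachea tuft libraries. In thymus tuft it was 2.03 to 2.30% in replicates 1 to 3 and 0.868% in replicate 4. The highest tuft group was SI for 27 of the 61 genes (44.3%, against 14.8% of all genes tested). It was thymus for 18 (29.5%, against 24.6%) and colon for 9 (14.8%, against 14.4%). Trachea was highest for 4 (6.56%, against 24.9%) and gall bladder for 3 (4.92%, against 21.3%). In edgeR's test between the 5 tuft groups 47 of the 61 (77%) differed, against 62% of all genes tested.

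Just inside the call lay Defa21, Bcas1 and Defa25, with largest adjusted p of 0.0495, 0.0489 and 0.0453 (edgeR). Just outside lay Krt35, Rimbp2 and Frmd3, with adjusted p of 0.053, 0.0539 and 0.0552 in SI. Rimbp2 and Frmd3 had log2 fold changes of -4.86 ± 1.46 and -5.45 ± 1.68 in SI tuft cells, and Krt35 had no read in any SI tuft library.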

How the data were processed

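RNA of sorted cells was sequenced as amplified cDNA with no molecular identifiers, per the labels' protocols, so floors cover counting error only. The deposited files hold raw counts per gene and library, made by the authors before deposit and not normalized. STAR, DESeq2 and the mouse build GRCm38 are named in the submitters' processing notes. The sources used here give neither versions nor the counting step and its use of strand, so overlapping, antisense and near-identical genes cannot be separated. Of 43432 gene identifiers, 42548 matched GENCODE M21, which gave symbols and coordinates. The other 884 held 0.0986% of counts.

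Counts of all 21 libraries were fitted together with edgeR 4.0.16 in R 4.3.3, after filterByExpr and TMM scaling. The model had 1 term per group and used the two-sided quasi-likelihood F test. It gives each gene 1 spread for all groups, so SI standard errors and p also carry the spread of the other groups. The coefficient of variation between libraries, common to all genes, was 0.27 in non-tuft SI and 0.507 in SI tuft. It was 0.706 in colon, 0.832 in thymus, 1.167 in gall bladder and 1.285 in trachea tuft. Benjamini-Hochberg adjustment ran over all 20335 tested genes. Calls needed an adjusted p under 0.05 together with a log2 fold change of 1 or more in either direction. Standard errors were approximated by dividing the log2 fold change by the root of F. Levels are TMM-scaled CPM, given per library or as mean ± SD, with n as in the group description. The 5 tuft groups were also tested among themselves, with a range of at least 1. Alternatives used limma 3.58.1 and DESeq2 1.42.0. Tables were made with pandas 2.3.3 and figures with matplotlib 3.10.9, under Python 3.11.15. The fit was also run on simulated counts with the same change in all 5 tuft groups and equal spread in every group. That run cannot show how the fit behaves where organs differ in level or spread.

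The members, the gene lists, the tests and the rule for named genes were chosen with earlier results of these data known. The rule took the 20 largest of the smallest fold changes each way at a level of at least 20 CPM, the 6 widest and 6 narrowest between tuft groups and the 3 nearest the threshold on each side. The ranks held no predicted genes, Xist, Y-linked genes or segments of antigen receptors. Genes on any of the 29 lists could be given as well. Some genes picked by this rule or held by the lists are not reported here. The labels give each library as a separate replicate and do not say whether libraries of different organs share a mouse. No pair of libraries within a group agreed within sampling noise.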

Additional observations from a re-analysis of the deposited data

Results flagged for a closer look

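In groups of 4 libraries, 339 sets of values from 113 named genes were screened on log2(CPM + 0.5) for 1 library far from the other 3. For normally distributed values chance marks about 1 set in 20, and 25 were marked. A set with reads in only 1 library is always marked, so that rate does not hold for Krt35, Defa22 and Defa25. No explanation of these values was tested.

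Thymus replicate 4 held 6 of them. There Zg16 was at 1.29 CPM (the other 3 at 163 to 254), Tff3 at 3.58 (108 to 137), Ido1 at 0.41 (9.77 to 13.2), Itln1 at 7.98 (33.9 to 45.3) and Defa30 at 0.112 (14.6 to 24.1), all genes of the lower set. Ehf was at 750.0 CPM there, against 657 to 671 in the other 3.

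In the other thymus libraries, replicate 1 had Ltc4s at 14.1 CPM (28.2 to 31.0 in the rest), Dscaml1 at 170.0 (149 to 151), Cpe at 6.31 (9.60 to 10.1) and Krt35 at 0.0963 (0 in the rest). Replicate 3 had Pygl at 136 CPM (188 to 190), Ptgs1 at 391 (453 to 466), Pstpip1 at 50 (28.6 to 31.0) and Capn9 at 15.0 (0.69 to 1.33). Replicate 2 had Calhm3 at 52.0 CPM (36.2 to 37.1).

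In trachea, replicate 1 had Inpp5d at 283 CPM (341 to 350 in the rest) and AY761184 at 0.0281 (0.186 to 0.212). Replicate 3 had Chgb at 1.73 CPM (10.9 to 13.6). Replicate 4 had Krt35 at 0.106 CPM (0 in the rest) and Mptx2 at 0.282 (0 to 0.0281). In colon, Hpgds was at 67.1 CPM in replicate 2 (49.7 to 52.3), Krt35 at 0.0186 in replicate 3 (0 in the rest) and AY761184 at 0.0606 in replicate 4 (8.31 to 12.7). Defa22 was at 0.0231 CPM and Defa25 at 0.0463 in colon replicate 1, with 0 in the rest.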

How the results depend on the processing

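No named gene turned its direction under any alternative, but the balance of higher and lower calls did in SI, in colon and over all 5 groups. Of the 266 genes called higher in all 5 tuft groups, 224 stayed called under all 7 alternatives that kept every library, and of the 61 lower genes 31 did. The count of higher genes ran from 201 to 288 as each library was left out, and that of lower genes from 25 to 77. Over the same settings the higher calls ran from 503 to 917 in SI, 565 to 1010 in colon and 1990 to 3782 in thymus tuft cells, and the lower calls in SI from 235 to 690. The shared Paneth genes ran from 4 to 12 and the shared enteroendocrine genes from 4 to 13. DESeq2 called 1139 genes higher and 1167 lower in SI and 93 lower in all 5, with 15 enteroendocrine genes among them.

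Each tuft group fitted with the reference alone gave 2092 higher and 2235 lower in SI, 1870 and 1535 in colon, 3211 lower in thymus and 215 lower in all 5, with 18 enteroendocrine genes. Limma voom with sample weights gave 2291 and 3593 in SI, 2086 and 2517 in colon, 5515 and 4094 in thymus and 325 higher and 386 lower in all 5, again with 18 enteroendocrine genes. Without the female trachea pools 3 and 4, 833 genes were lower in SI. The cause of these moves was not tested. The median change of all genes in thymus tuft cells was 0.22 under TMM and 0.44 under DESeq2 scaling.

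With the replicate number as a block, 245 genes were higher and 37 lower in all 5. The deviations of same-numbered tuft and non-tuft SI libraries correlated between -0.033 and 0.096. Tuft groups were not compared with each other in this way. Libraries of 1 mouse need not correlate across organs, so these values cannot tell whether libraries share a mouse. The block moved no other count by over 1.5 times. Libraries of 130 to 453 cells limit what can be read of low genes in trachea.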
